A study of Mus musculus with 12 samples.

Results

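TREM2 and the activating Fc receptors of myeloid cells signal through small adaptor chains that carry an immunoreceptor tyrosine-based activation motif (ITAM), and 10 genes of this route were followed in cells sorted from mouse spinal cord at postnatal day 10. The members are a fixed list of gene names, chosen with earlier results of these data known. The receptors are Trem2, Clec7a, Fcgr1, Fcgr3 and Fcgr2b, and the adaptor chains are Tyrobp and Fcer1g. The others are the kinase Syk, the phospholipase Plcg2 and the phosphatase Inpp5d. All 10 were found among the 35675 genes to which transcript counts were summed, and all 10 were among the 13456 genes tested. RalAB cKO mice carried CnpCre together with the floxed alleles RalAflox/flox and RalBflox/flox, RalA cKO mice carried CnpCre with RalAflox/flox, and control mice carried CnpCre with neither floxed allele. The reporter in all mice was Rosa26-StopFlox-TdTomato. There were 4 mice per genotype and 1 RNA library per mouse. All 3 groups therefore carried CnpCre, a Cre recombinase under the control of the Cnp gene of myelinating glia, and the Cre-dependent tdTomato reporter. Cells were sorted for tdTomato with a gate on large forward scatter, and the labels call them enriched in oligodendrocytes, the myelin-forming cells. RalA and RalB are small GTPases. No group lacked RalB alone, and the sex of the mice was not given in the sources used here.

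In an ITAM, a pair of tyrosines is phosphorylated by kinases of the Src family, and the doubly phosphorylated motif is then bound by Syk through its tandem SH2 domains. TREM2 is a lipid-sensing receptor that has no such motif and pairs with the adaptor DAP12, the product of Tyrobp. The activating IgG receptors encoded by Fcgr1 and Fcgr3 pair with the common gamma chain, the product of Fcer1g. Dectin-1, encoded by Clec7a, is a receptor for fungal glucans that binds Syk through a single tyrosine of its own tail. Downstream, PLCγ2, encoded by Plcg2, cleaves a membrane phosphoinositide to make second messengers. The inhibitory IgG receptor encoded by Fcgr2b and the lipid phosphatase SHIP1, encoded by Inpp5d, oppose this signal. In the central nervous system these genes are best known from microglia, where TREM2 and DAP12 take part in phagocytosis and in the response to damaged myelin.

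The bases that encode the tyrosine motifs are shown for the adaptor chains and for the receptors that have a known motif of their own. They were read 5′ to 3′ on the coding strand from GENCODE vM21 transcripts (build GRCm38), with the tyrosine codons in capitals. The ITAM of Tyrobp spans chr7:30415670-30417382 on the + strand and is split between exons 4 and 5 of 5. The ITAM of Fcer1g lies at chr1:171229889-171230072 on the - strand, also split between exons 4 and 5 of 5. The inhibitory motif of Fcgr2b (an ITIM, a single tyrosine that recruits phosphatases such as SHIP1) lies in exon 7 of 7 at chr1:170961071-170961088 on the - strand. The single-tyrosine motif of Clec7a, called a hemITAM, lies in exon 1 of 6 at chr6:129472632-129472649 on the - strand.
Tyrobp ITAM: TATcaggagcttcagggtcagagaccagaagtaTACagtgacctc
Fcer1g ITAM: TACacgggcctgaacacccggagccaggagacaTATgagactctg
Fcgr2b ITIM: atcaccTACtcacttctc
Clec7a hemITAM: gatggaTATactcaatta
The ITAMs of Tyrobp and Fcer1g have the same length of 45 bases, with the tyrosine codons at the same spacing. Of the coding sequences of the 10 members, those of Tyrobp and Fcer1g alone held a stretch with the ITAM pattern. The shorter ITIM pattern was also met once each in Tyrobp and Fcer1g, in 3 places in Fcgr1 and in 2 in Plcg2, as a match of letters alone. Trem2, Fcgr3, Syk and Inpp5d held none of the 3 patterns searched. All 4 stretches were present in the transcript of each gene that held the most counts.

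Libraries held 10.93 to 15.44 M estimated counts. The genes targeted by the Cre did not pass the test at the level of whole genes. Rala stood at 32.2 to 42.9 CPM (counts-per-million, scaled by library) in RalAB cKO libraries, 33.1 to 42.7 CPM in RalA cKO libraries and 35.5 to 59.3 CPM in control libraries, and Ralb stood at 14.0 to 17.2, 13.4 to 17.5 and 15.1 to 23.3 CPM in the same order of groups. The exons removed were not given in the sources used here, and a whole-gene count holds reads from outside them, so these values do not check the deletion. In RalAB cKO libraries 10 oligodendrocyte markers summed to 94700 to 122000 CPM. The sum was 108000 to 126000 CPM in RalA cKO libraries and 92400 to 120000 CPM in control libraries. These sums were high and overlapped, but Mbp made up 49.9% of them in RalAB cKO, 38.2% in RalA cKO and 40.5% in control. Of the 10 markers, 6 were called lower and 0 higher in RalAB cKO than in control. Against RalA cKO, 5 were lower in RalAB cKO and 0 higher. In RalA cKO against control, 1 was higher and 0 lower. Over all 13456 tested genes, 1214 were called lower in the first of these comparisons and 605 in the second. In RalA cKO against control 230 were called higher. A list of 26 pan-myeloid markers, led by Csf1r and Laptm5, was present at a far lower level, at 827 to 1490 CPM in RalAB cKO libraries, 153 to 244 CPM in RalA cKO libraries and 233 to 447 CPM in control libraries. Of its 25 tested genes, 25 were higher in RalAB cKO than in control, 25 were higher in RalAB cKO than in RalA cKO, and 2 were lower in RalA cKO than in control. The shares over all tested genes were 9.39%, 7.03% and 1.07% in the same order. No marker of this list was at 0. Several defining markers of other blood cells were at 0 in all libraries: S100a9, Camp, Elane and Retnlg of neutrophils, Cd3e and Ncr1 of T and NK cells, and Cpa3, Ms4a2 and 3 proteases of mast cells. Others were present and called higher in RalAB cKO than in either other group. Csf3r, from the neutrophil list, averaged 17.9 CPM in RalAB cKO, 2.09 CPM in RalA cKO and 2.66 CPM in control, and Kit, from the mast cell list, 26.3, 10.6 and 4.06 CPM in the same order. From the B cell list, Ighm averaged 13.2, 2.68 and 3.44 CPM and Cd22 2.57, 0.0752 and 0.197 CPM. From the border macrophage list, Stab1 averaged 47.9, 7.27 and 12.7 CPM and Folr2 13.1, 9.27 and 7.3 CPM in the same order. Both were called higher in RalAB cKO than in control, and Stab1 also than in RalA cKO. Mrc1 and F13a1 of that list were called in no comparison. From the monocyte list, Chil3 and F10 were at 0 in all libraries, and Vcan and Ly6c1 were called in no comparison. Ly6c2 and Ccr2 averaged at most 0.168 CPM in any group. The part of these markers in the members' differences was not tested. The summed pan-myeloid markers were thus highest where the members were highest, with RalAB cKO 1 the lowest of its group, and their part in the members' differences was not tested. In sorted bulk samples, more cells of a type and more RNA per cell cannot be told apart.

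In RalAB cKO against control, the receptors of the route were all higher, by 3.65-fold for Fcgr1 to 8.49-fold for Clec7a. All 10 members were higher in RalAB cKO than in control by edgeR's quasi-likelihood test with Benjamini-Hochberg adjustment over all genes tested (adjusted p under 0.05), where 9.39% of all tested genes were called higher. Clec7a passed the filter on low counts only through the RalAB cKO libraries, reaching its cutoff of 0.797 CPM in 4 of them, in 0 RalA cKO and in 2 control libraries, so its entry into the test already depended on a high level there. Fcgr2b reached it in 4 RalAB cKO, 2 RalA cKO and 3 control libraries, and the other 8 members reached it in all 12. The members' median log2 fold change was 2.33, against -0.01 over all genes tested. For 9 of the 10 members the groups did not overlap, with all RalAB cKO libraries above all control libraries, which was so for 9.88% of all tested genes. The exception was Plcg2. The members were chosen with earlier results of these data known. Their counts and medians, here and in the comparisons below, are therefore no support of their own.

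Trem2 (chr17:48346401-48354147, + strand) stood at 45.5, 74.8, 99.6 and 98.1 CPM in RalAB cKO libraries 1 to 4, against 7.2, 12.1, 14.3 and 11.7 CPM in control libraries 1 to 4. The lowest RalAB cKO library was still far above the highest control library. The fitted log2 fold change was 2.81 ± 0.27 (SE), a 7.02-fold higher level in RalAB cKO (adjusted p = 2.02e-05). Fcgr3 (chr1:171051174-171064935, - strand), the low-affinity activating IgG receptor, stood at 27.2, 37.5, 44.8 and 43.4 CPM in RalAB cKO libraries and at 3.73, 6.66, 10.4 and 6.0 CPM in control libraries. The groups were again apart, with RalAB cKO 1 the lowest of its group and control 3 the highest of its own, and the log2 fold change was 2.51 ± 0.26 (adjusted p = 2.35e-05). Fcgr1 (chr3:96282909-96293969, - strand), the high-affinity IgG receptor, stood at 7.87, 10.5, 14.3 and 13.5 CPM in RalAB cKO libraries and at 2.16, 3.41, 3.81 and 3.27 CPM in control libraries. Its log2 fold change was 1.87 ± 0.24 (adjusted p = 9.66e-05).

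The inhibitory receptor moved the same way as the activating ones. Fcgr2b (chr1:170958617-170976547, - strand) stood at 5.35, 6.86, 8.15 and 6.54 CPM in RalAB cKO libraries, against 0.458, 1.74, 1.94 and 1.27 CPM in control libraries, a log2 fold change of 2.31 ± 0.35 (adjusted p = 0.000386). Fcgr2b and Fcgr3 are related in sequence: 16.3% of the 31-base words of the main Fcgr2b transcript also occur in Fcgr3 transcripts, and 17.7% of those of Fcgr3 occur in Fcgr2b. How the deposited counts divide between this pair is therefore uncertain, while none of the words of Trem2, Tyrobp, Fcer1g, Fcgr1, Plcg2 or Inpp5d occurred in another gene. Clec7a (chr6:129461591-129472779, - strand) was the least counted member, with 36 to 134 estimated counts per RalAB cKO library and 4 to 13 per control library. In CPM these were 2.67, 4.0, 10.7 and 5.7 in RalAB cKO libraries and 0.262, 1.03, 0.625 and 0.818 in control libraries. RalAB cKO 3 was well above the other libraries of its group, and the log2 fold change of 3.08 ± 0.49 (adjusted p = 0.000482) had the widest error of the 10.

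**Figure D1:**
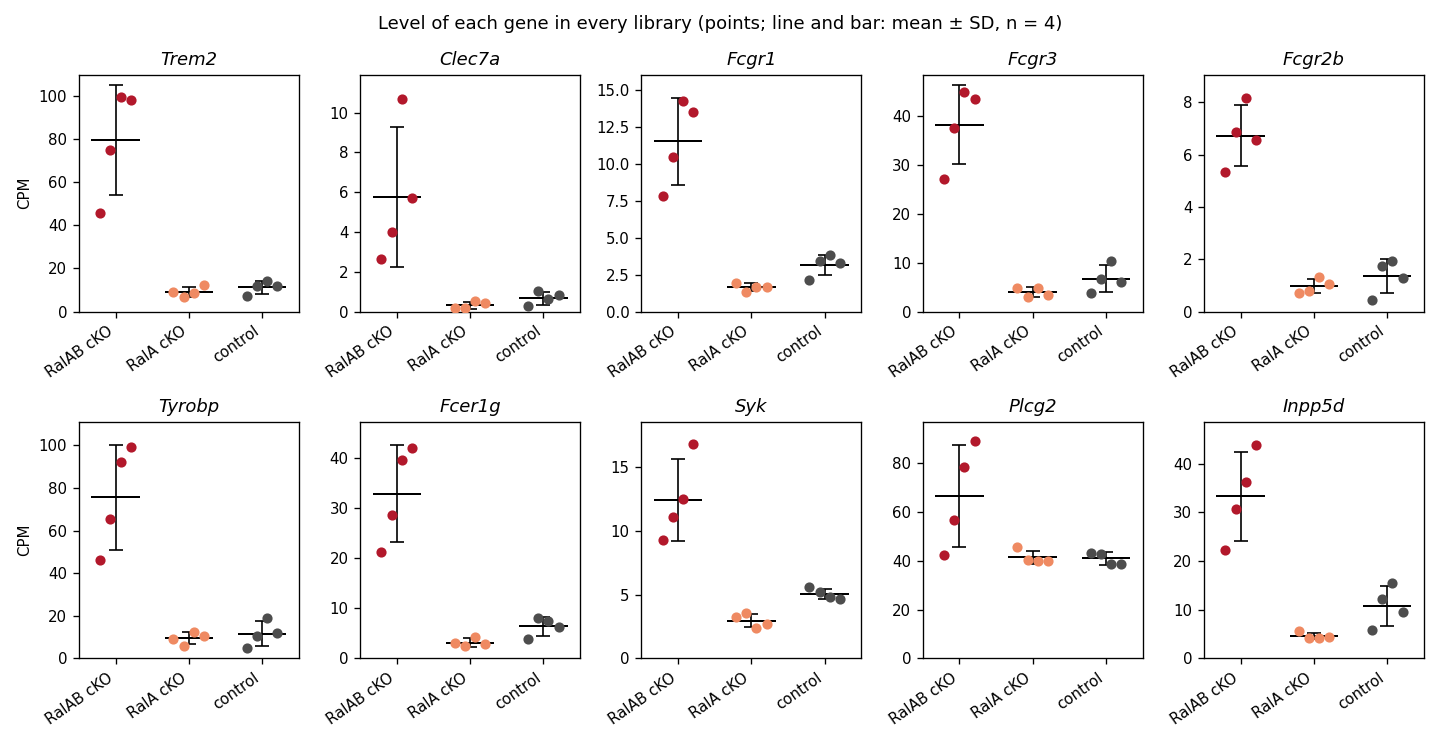
Level of each of the 10 genes in CPM (vertical axis, linear from 0, own scale per gene) in RalAB cKO, RalA cKO and control libraries; each point is 1 library, drawn from library 1 at the left to 4 at the right, and the line and bar are the mean ± SD (n = 4). The RalAB cKO points lie above all others for every gene but Plcg2, where the lowest RalAB cKO library, at 42.4 CPM, lies among the control libraries (38.5 to 43.3 CPM).

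The adaptor chains rose with their receptors. Tyrobp (chr7:30413760-30417585, + strand), the partner of TREM2, stood at 46.1, 65.3, 92.1 and 99.1 CPM in RalAB cKO libraries, against 4.98, 10.5, 19.1 and 12 CPM in control libraries. Its log2 fold change was 2.69 ± 0.37 (adjusted p = 0.000482), and the groups did not overlap although the control libraries varied widely among themselves. Fcer1g (chr1:171229572-171234365, - strand), the partner of the activating Fc receptors, stood at 21.2, 28.7, 39.6 and 42.1 CPM in RalAB cKO libraries and at 3.86, 8.01, 7.5 and 6.27 CPM in control libraries. Its log2 fold change was 2.36 ± 0.26 (adjusted p = 2.4e-05).

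In RalAB cKO against control, the enzymes behind the adaptors rose by less. Syk (chr13:52583173-52648792, + strand) stood at 9.28, 11.1, 12.5 and 16.8 CPM in RalAB cKO libraries and at 5.57, 5.23, 4.81 and 4.64 CPM in control libraries, with a log2 fold change of 1.29 ± 0.21 (adjusted p = 0.00053). The control libraries lay close together, and the groups did not overlap. Inpp5d (chr1:87620312-87720507, + strand) stood at 22.3, 30.6, 36.3 and 43.9 CPM in RalAB cKO libraries, against 5.89, 12.3, 15.4 and 9.46 CPM in control libraries. Its log2 fold change was 1.63 ± 0.25 (adjusted p = 0.000505), and control 1 was the lowest library of its group, as it was for 8 of the 10 members. Plcg2 (chr8:117498291-117635142, + strand) changed least. It stood at 42.4, 56.6, 78.2 and 88.8 CPM in RalAB cKO libraries, against 43.3, 42.8, 38.8 and 38.5 CPM in control libraries. RalAB cKO libraries 2 to 4 were above every control library and RalAB cKO 1 was not, with a log2 fold change of 0.70 ± 0.17 (adjusted p = 0.00984).

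**Figure D2:**
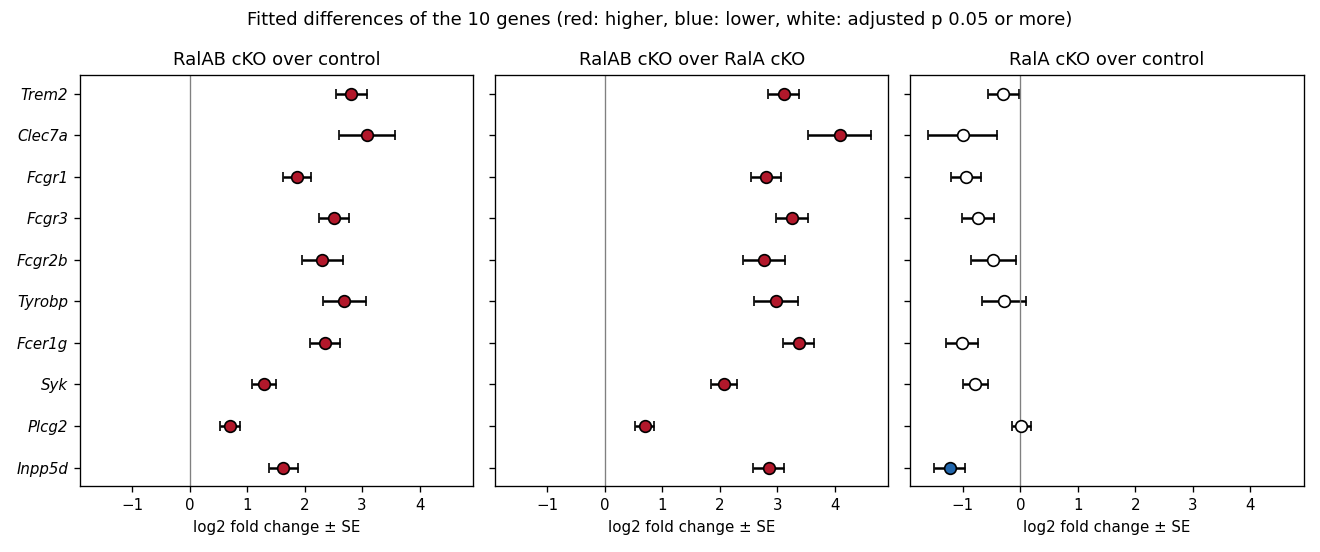
Fitted log2 fold change ± SE (horizontal axis) of each gene in RalAB cKO over control, RalAB cKO over RalA cKO and RalA cKO over control (4 libraries per group). All 10 genes are called higher where RalAB cKO is set against either group, by 0.69 to 4.08, and Inpp5d alone is called, as lower, in RalA cKO against control.

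Set against RalA cKO, which shares the loss of RalA, the RalAB cKO libraries again held more of every member. All 10 were called higher, where 7.03% of tested genes were, with a median log2 fold change of 2.92 against -0.03 over all genes. The groups did not overlap for 9 members, as for 9.65% of tested genes, and Plcg2 was again the exception. This comparison and the one with control share the RalAB cKO libraries, and the comparison of RalA cKO with control shares libraries with each, so the comparisons are not independent. Trem2 stood at 8.94, 6.63, 8.73 and 12.2 CPM in RalA cKO libraries 1 to 4, and its log2 fold change in RalAB cKO over RalA cKO was 3.11 ± 0.27 (adjusted p = 1.06e-05). The corresponding changes were 2.98 ± 0.38 for Tyrobp (adjusted p = 0.00023) and 3.37 ± 0.27 for Fcer1g (adjusted p = 3.35e-06). Fcer1g stood at 3.04, 2.39, 4.36 and 2.92 CPM in the RalA cKO libraries.

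Among the receptors, Fcgr3 was higher in RalAB cKO than in RalA cKO by 3.25 ± 0.28 on the log2 scale (adjusted p = 5.78e-06), Fcgr1 by 2.80 ± 0.26 (adjusted p = 6.72e-06) and Fcgr2b by 2.77 ± 0.37 (adjusted p = 9.08e-05). Clec7a was at 2, 2, 6 and 6 estimated counts in RalA cKO libraries, so its log2 fold change of 4.08 ± 0.54 (adjusted p = 8.38e-05) rests on very few counts on that side. Syk stood at 3.22, 3.54, 2.36 and 2.7 CPM in RalA cKO libraries, and was higher in RalAB cKO by 2.07 ± 0.22 (adjusted p = 1.58e-05). Inpp5d was higher by 2.85 ± 0.27 (adjusted p = 1.14e-05), close to Fcgr1 and Fcgr2b, unlike its smaller change against control. Plcg2 was higher by 0.69 ± 0.17 (adjusted p = 0.0144), and this call depended on RalAB cKO 3 and 4, since leaving out the first gave 0.60 (adjusted p = 0.053) and leaving out the other gave 0.52 (adjusted p = 0.0622).

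In RalA cKO against control, 1 of the 10 members was called, Inpp5d, which was lower. Over all genes tested 2.78% were called and 1.07% were called lower. Inpp5d stood at 5.63, 4.16, 4.28 and 4.34 CPM in RalA cKO libraries, against 5.89, 12.3, 15.4 and 9.46 CPM in control libraries. All RalA cKO libraries were below all control libraries, though RalA cKO 1 and control 1 were close, and the log2 fold change was -1.23 ± 0.27 (adjusted p = 0.0267). The call was lost without any 1 of 5 libraries, with adjusted p from 0.0525 to 0.107: RalA cKO 2, 3 or 4, or control 2 or 3. It was also lost where counts were corrected for the lengths of the transcripts they were assigned to (log2 fold change -0.64, adjusted p = 0.344).

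Of the other 9 members, 8 had a negative log2 fold change in RalA cKO against control that did not pass the test. Fcer1g was at -1.01 ± 0.28 (adjusted p = 0.0586), Fcgr1 at -0.94 ± 0.26 (adjusted p = 0.0636) and Syk at -0.78 ± 0.22 (adjusted p = 0.0634). Fcgr1 stood at 1.97, 1.33, 1.66 and 1.64 CPM in RalA cKO libraries against 2.16, 3.41, 3.81 and 3.27 CPM in control libraries. In Fcgr1, Syk and Inpp5d the RalA cKO libraries lay below all control libraries, which was so for 5.77% of tested genes. Trem2 at -0.30 ± 0.27 (adjusted p = 0.521), Tyrobp at -0.29 ± 0.38 (adjusted p = 0.675), Fcgr3 at -0.74 ± 0.28 (adjusted p = 0.136), Fcgr2b at -0.47 ± 0.39 (adjusted p = 0.483) and Clec7a at -1.0 ± 0.60 (adjusted p = 0.327) overlapped between the groups. Plcg2 stood at 45.5, 40.1, 39.7 and 39.9 CPM in RalA cKO libraries, a log2 fold change of 0.02 ± 0.17 (adjusted p = 0.964). Leaving out control 1, in which 8 members were lowest, raised the number of members called lower to 4: Inpp5d, Fcer1g (-1.19, adjusted p = 0.0192), Fcgr1 (-1.09, adjusted p = 0.0261) and Fcgr3 (-0.95, adjusted p = 0.0357). Calls over all genes rose in that fit as well. Of 13669 tested genes 947 were called, 338 of them lower, against 374 called and 144 lower in the main fit.

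Levels were compared between genes as TPM (transcripts-per-million), which account for transcript length. Tyrobp was the most abundant member in each group, with mean levels of 267 ± 67.3 TPM in RalAB cKO, 33.3 ± 11.3 TPM in RalA cKO and 46.6 ± 25.6 TPM in control (SD, n = 4 each). Trem2 was next in each group, at 136 ± 35.3 TPM in RalAB cKO, 15.4 ± 3.84 TPM in RalA cKO and 21.6 ± 6.84 TPM in control. The ranges of Tyrobp and Trem2 did not overlap in RalAB cKO, at 190 to 335 and 89 to 165 TPM, and did in the other groups. Within every single library of all groups, Tyrobp was above Trem2. In control, Trem2 did not differ beyond its spread from the next gene, Fcer1g, at 21.0 ± 6.95 TPM. In RalA cKO the next gene was Plcg2, at 15.2 ± 1.38 TPM, likewise within the spread of Trem2.

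The level of Plcg2 relative to Trem2 differed between the groups. Its mean TPM was 18.5% of that of Trem2 in RalAB cKO, 98.7% in RalA cKO and 78.8% in control. Its level was 25.0 ± 6.08 TPM in RalAB cKO, 15.2 ± 1.38 TPM in RalA cKO and 17.0 ± 1.22 TPM in control. Fcgr3 was at 48.3 ± 6.75, 4.94 ± 1.44 and 9.42 ± 4.45 TPM in RalAB cKO, RalA cKO and control, and Inpp5d at 14.2 ± 4.14, 3.54 ± 2.11 and 5.98 ± 1.65 TPM. The receptors Fcgr1, Fcgr2b and Clec7a and the kinase Syk made up the low end in each group, at mean levels of 3.86 to 9.82 TPM in RalAB cKO, 0.476 to 1.3 TPM in RalA cKO and 0.656 to 3.42 TPM in control.

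Since the pan-myeloid markers moved with the members, the counts of each member were also expressed per 1000 counts of the 26 markers, none of which is a member. By this measure 5 members were higher in RalAB cKO than in control with no overlap, 1 was lower with no overlap and 4 overlapped. Trem2 was at 55.0, 69.9, 66.7 and 67.8 per 1000 marker counts in RalAB cKO libraries, 39.4, 43.4, 35.7 and 52.6 in RalA cKO libraries and 31, 34.4, 31.9 and 36.2 in control libraries. RalAB cKO was thus apart from both other groups, with a log2 difference of 0.95 from control, while RalA cKO and control overlapped. Tyrobp was higher in RalAB cKO than in control by 0.95, Clec7a by 1.14, Fcgr3 by 0.74 and Fcer1g by 0.52, again with no overlap. Fcgr1 was the closest to the markers, at 9.35 to 9.85 per 1000 marker counts in RalAB cKO libraries and 8.54 to 10.1 in control libraries, a log2 difference of 0.02. Inpp5d at -0.16, Syk at -0.57 and Fcgr2b at 0.64 overlapped as well.

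Plcg2 went the other way. It stood at 51.3 to 61.4 per 1000 marker counts in RalAB cKO libraries, 163 to 262 in RalA cKO libraries and 86.8 to 186 in control libraries, a log2 difference of -1.19 between RalAB cKO and control with no overlap. Between RalAB cKO and RalA cKO, 6 members were higher with no overlap, 1 was lower and 3 overlapped. In RalA cKO against control all 10 overlapped, Inpp5d included, at 17.5 to 27.2 per 1000 marker counts in RalA cKO libraries and 25.4 to 34.9 in control libraries. These ratios are descriptions of the libraries, and both their size and their overlap changed with the choice of markers. With 15 homeostatic microglia markers in place of the 26, 8 members were higher in RalAB cKO than in control with no overlap, 0 were lower and 2 overlapped, Plcg2 among them. Between RalA cKO and control, 3 members (Fcer1g, Fcgr1 and Inpp5d) were then lower in RalA cKO with no overlap and 7 overlapped. In control libraries 36.9% of that list's sum came from Sparc and 19.9% from Sall1. The mean level of Sall1 was 105 CPM in RalAB cKO, 97.4 CPM in RalA cKO and 115 CPM in control, and it was called in no comparison. Without Sparc and Sall1, a choice made after seeing the data, the pattern over the members was again 5 higher, 1 lower and 4 overlapping in RalAB cKO against control.

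**Figure D3:**
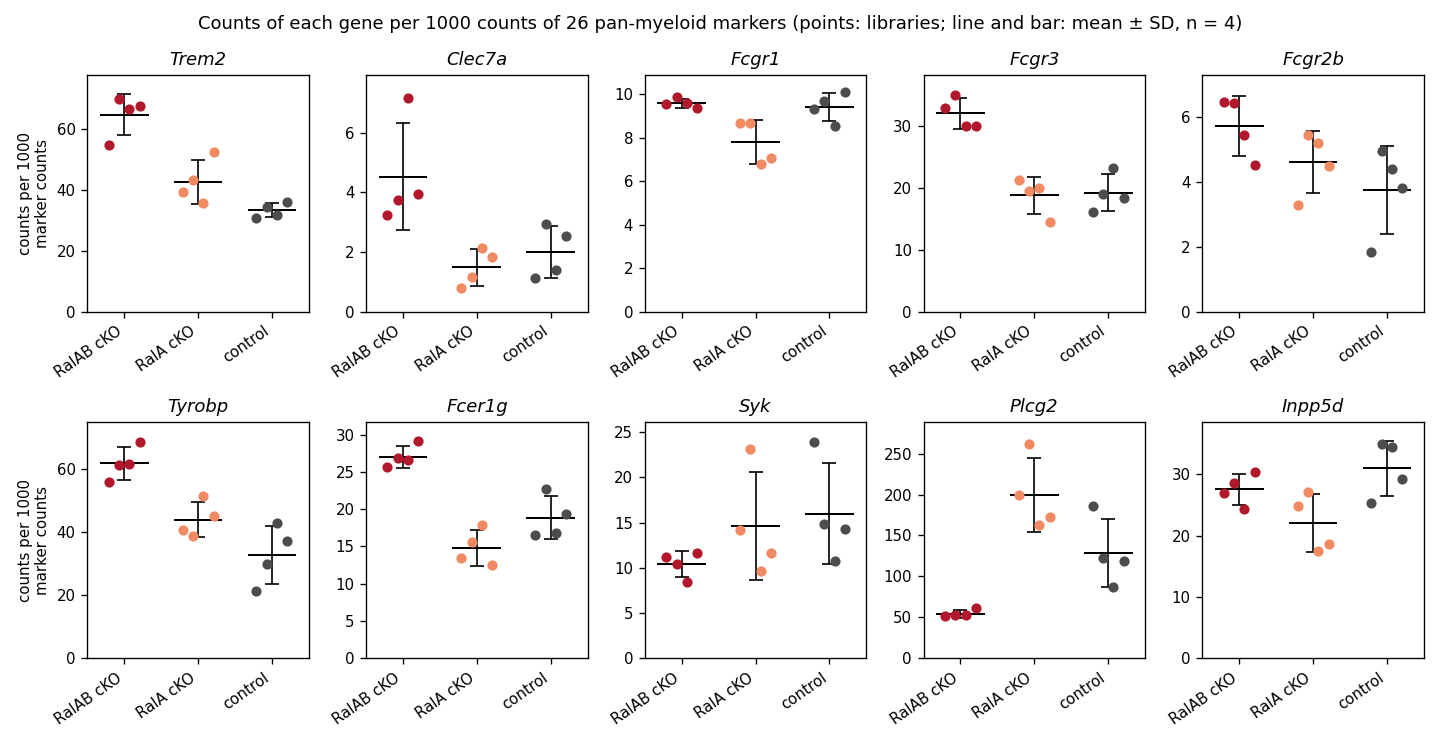
Estimated counts of each gene per 1000 counts of 26 pan-myeloid markers (vertical axis, linear from 0) in RalAB cKO, RalA cKO and control libraries; points are libraries, and the line and bar are the mean ± SD (n = 4). Trem2, Tyrobp, Fcer1g, Fcgr3 and Clec7a remain above control in RalAB cKO, Fcgr1 is level at 9.35 to 9.85 against 8.54 to 10.1, and Plcg2 is lower at 51.3 to 61.4 against 86.8 to 186.

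Across the 12 libraries the log2 CPM of the members went together, with the lowest correlations for Plcg2. Pearson's r between Plcg2 and the other members was 0.724 to 0.836. Among the other members r began close above that, at 0.842 between Fcgr2b and Syk. The highest r was 0.991, between Fcer1g and Fcgr1. These values are descriptions over 12 libraries that include the group differences above and share the same library totals. The genes whose levels followed Trem2 most closely over all tested genes were C1qa (r = 0.991), Gna15 (r = 0.991), Slc15a3 (r = 0.989), Ucp2 (r = 0.986) and Csf3r (r = 0.986). C1qa encodes a chain of complement C1q. For Plcg2 they were a different set, Sap18 (r = 0.956), Rgs16 (r = 0.953), Il3ra (r = 0.951), Plaur (r = 0.941) and Bag1 (r = 0.935). Within groups, the SD of log2 CPM was 0.245 to 0.824 in RalAB cKO and 0.0909 to 0.804 in control, with the lowest control value for Plcg2 and the highest for Fcgr2b.

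The deposited files count transcripts, which allows a look at isoforms. Tyrobp-202 held 95.6% to 100% of Tyrobp counts in every library, and Plcg2-201 held 100% of Plcg2 counts. Trem2-201 held 80.3% to 84.4% of Trem2 counts in RalAB cKO libraries, 54.3% to 83.2% in RalA cKO libraries and 71.5% to 91.6% in control libraries, with most of the rest in Trem2-202. The groups overlapped. Inpp5d counts were spread over many transcripts: Inpp5d-210 held 30.9% to 61.2% in RalAB cKO libraries, 0% in all 4 RalA cKO libraries and 26.6% to 85.5% in control libraries. Only 0.978% of the 31-base words of Inpp5d-210 are found in no other Inpp5d transcript, and Inpp5d-208 has none of its own, so that few reads can separate them at 47 to 63 counts per RalA cKO library. Syk counts went between Syk-201 and Syk-203 from library to library within each group, with Syk-201 at 4.37% to 97.3% in RalA cKO libraries alone. Clec7a, which GENCODE vM21 types as a polymorphic pseudogene, was divided among Clec7a-201, Clec7a-202 and Clec7a-204 in the same unstable way, and whole-gene counts were used for all tests.

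**Figure D4:**
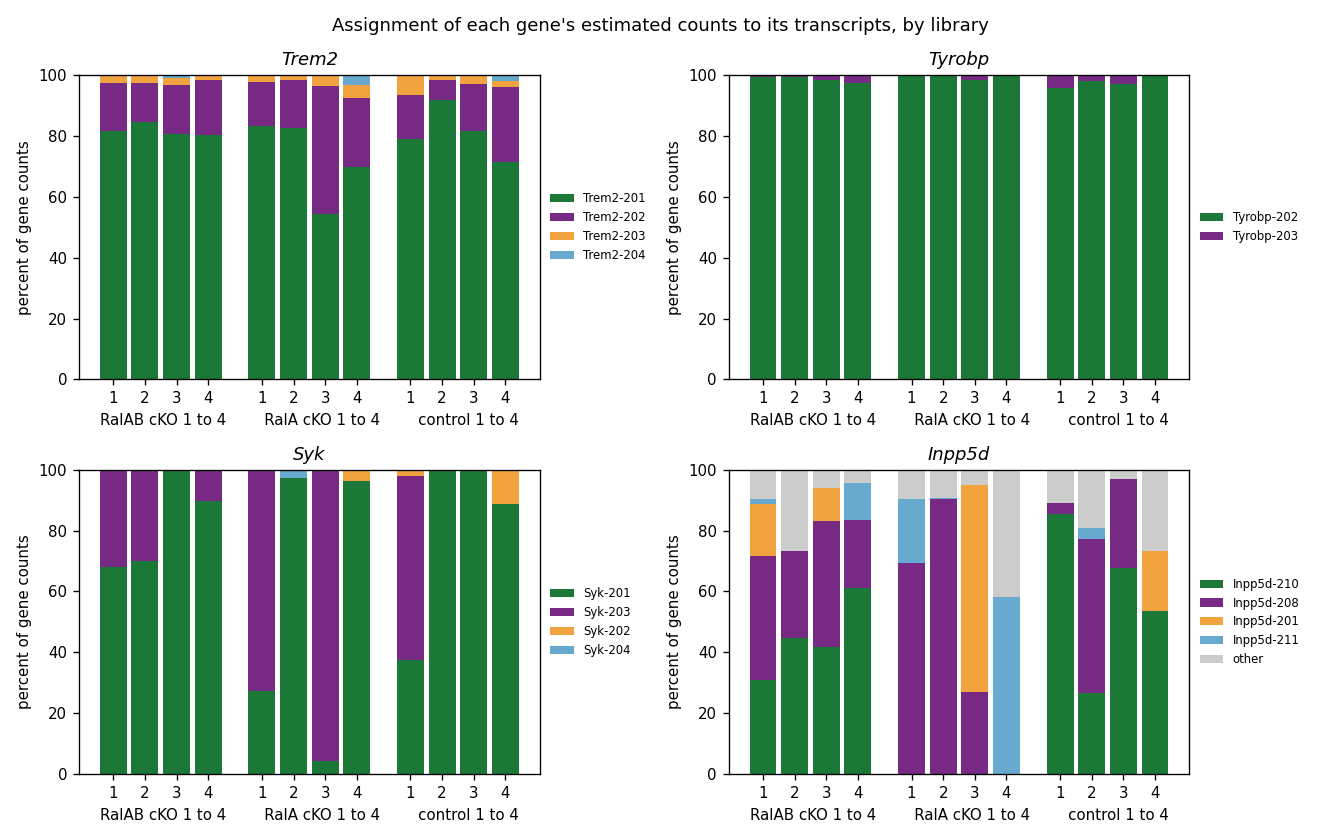
Share of the estimated counts of Trem2, Tyrobp, Syk and Inpp5d assigned to each transcript (vertical axis, percent of the gene's counts), by library, for RalAB cKO 1 to 4, RalA cKO 1 to 4 and control 1 to 4 from left to right. Tyrobp-202 holds at least 95.6% in every library, whereas the shares of the Syk and Inpp5d transcripts change between libraries of the same group.

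Around the members, 118 other genes of the route were looked at in 6 lists: receptors of the same adaptors, kinases, adaptor proteins, effectors, inhibitory receptors with their phosphatases, and ligands and sheddases of TREM2. Of these, 78 passed the filter on low counts. In RalAB cKO against control 40 were higher and 2 lower, so that 53.8% were called, against 18.4% of all tested genes. In RalAB cKO against RalA cKO 48 were higher and 1 lower, or 62.8% called against 11.5%. In RalA cKO against control 2 were higher and 5 lower, or 8.97% called against 2.78%. Of the 78, 14 would not have entered the test without the RalAB cKO libraries, so these shares are no support of their own. Of the same 78, 3 are also among the pan-myeloid markers (Itgam, Itgb2 and Ptprc) and 2 among the homeostatic microglia markers (Fcrls and Siglech).

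Of 7 tested receptors that use the same adaptors, 6 were higher in RalAB cKO than in control, where 9.39% of all tested genes were. The median log2 fold change over the 7 was 2.00, the value of Fcgr4. Clec5a, Fcgr4 and Treml2 reached the filter's cutoff in RalAB cKO libraries alone, so their entry into the test already depended on a high level there. Fcgr4 and Treml2 are among the 6, so this count and this median are no support of their own. Itgb2, the integrin chain CD18, was at 13.4 to 25.3 CPM in RalAB cKO libraries and 2.75 to 4.2 CPM in control libraries (log2 fold change 2.37 ± 0.26, adjusted p = 2.39e-05). Its partner Itgam was higher by 1.54 ± 0.24 (adjusted p = 0.000482), and the activating receptor Cd300c2 by 2.68 ± 0.31 (adjusted p = 4.23e-05). Of the 28 listed, 9 were at 0 in all libraries, among them Clec4d, Clec4e, Trem3 and Treml4, and the Fc receptor Fcgr4 was at 0 in all RalA cKO libraries, at 0.817 to 2.00 CPM in RalAB cKO libraries and at 0.0625 to 0.637 CPM in control libraries.

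Among the tested kinases, Lyn (1.49 ± 0.27, adjusted p = 0.00141), Btk (1.54 ± 0.47, adjusted p = 0.0329) and Fgr, known mainly from blood cells, were higher in RalAB cKO than in control, and Tec, of the same family as Btk, did not pass the test. Fgr was at 1.11 to 4.56 CPM in RalAB cKO libraries and 0 to 0.273 CPM in control libraries. It reached the filter's cutoff of 0.797 CPM in RalAB cKO libraries alone, so its call already depended on a high level there. Src was lower, at 36.8 to 43.0 CPM in RalAB cKO libraries and 50.4 to 87.0 CPM in control libraries (-0.75 ± 0.16, adjusted p = 0.00452). Fyn, a Src-family kinase of oligodendrocytes, did not pass the test, at 1160 to 1250 CPM in RalAB cKO libraries and 1020 to 1330 CPM in control libraries (0.08 ± 0.11, adjusted p = 0.683). It was called higher in RalAB cKO than in RalA cKO, at 837 to 1030 CPM in RalA cKO libraries (0.42 ± 0.11, adjusted p = 0.0178).

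Among 11 tested adaptor proteins 6 were higher in RalAB cKO than in control, where 9.39% of all tested genes were. Blnk, which links Syk to phospholipase C, was higher by 2.72 ± 0.32 (adjusted p = 4.38e-05) and Lcp2, the related SLP-76, by 2.03 ± 0.33 (adjusted p = 0.000616). Sh3bp2, which binds Syk and PLCγ proteins, was called higher than control in both mutants. It stood at 19.6 to 25.6 CPM in RalAB cKO libraries, 9.37 to 17.4 CPM in RalA cKO libraries and 5.31 to 7.56 CPM in control libraries, and was higher than control by 1.81 ± 0.19 in RalAB cKO (adjusted p = 2.25e-05) and by 0.96 ± 0.19 in RalA cKO (adjusted p = 0.0159). Grb2, an adaptor of nearly all cells, was at 0.07 ± 0.10 in RalAB cKO over control (adjusted p = 0.665).

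Among 23 tested effectors 8 were higher in RalAB cKO than in control, with a median log2 fold change of 0.34 over the 23. Over all tested genes 9.39% were called higher. The 4 with the smallest p were Rac2 (2.01 ± 0.30, adjusted p = 0.000283), Vav1 (2.04 ± 0.33, adjusted p = 0.000563), Pik3r5 (2.55 ± 0.49, adjusted p = 0.00219) and Pik3cd (1.5 ± 0.30, adjusted p = 0.00289), each known mainly from blood cells. The broadly expressed Rac1 (0.34 ± 0.10, adjusted p = 0.0317) and Dgkz (0.48 ± 0.14, adjusted p = 0.0309) were also called higher, by less. Plcg1, the broadly expressed relative of Plcg2, was at 61.2 to 70.8 CPM in RalAB cKO libraries and 62.1 to 79.8 CPM in control libraries (-0.03 ± 0.10, adjusted p = 0.856).

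On the list of inhibitory receptors and phosphatases, 14 of 21 tested genes were higher in RalAB cKO than in control, and none was called lower. Over all tested genes 9.39% were called higher. Of the 14, Cd300lf, Lilrb4a and Pirb would not have entered the test without the RalAB cKO libraries. The listed genes were not searched for the tyrosine motifs, so the list is one of names. Fcrls, a microglial Fc receptor-like gene, was at 122 to 231 CPM in RalAB cKO libraries and 23.2 to 56.4 CPM in control libraries (2.32 ± 0.29, adjusted p = 0.000237). Sirpa, a receptor for CD47, was higher by 1.64 ± 0.22 (adjusted p = 0.000244) and Lair1, a collagen receptor, by 1.49 ± 0.21 (adjusted p = 0.000172). The phosphatases that receptors with an ITIM recruit were higher too. Ptpn6, encoding SHP-1, was higher by 1.80 ± 0.37 (adjusted p = 0.00382). The broadly expressed Ptpn11, encoding SHP-2, was higher by 0.59 ± 0.09 (adjusted p = 0.000253).

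Of 8 tested genes for TREM2 ligands and shedding, 2 were higher and 1 lower in RalAB cKO than in control. Over all tested genes 9.39% were called higher. Apoe, encoding an apolipoprotein that binds TREM2, was at 738 to 1300 CPM in RalAB cKO libraries and 328 to 651 CPM in control libraries (1.33 ± 0.23, adjusted p = 0.00117). Lgals3, encoding galectin-3, was at 3.93 to 10.9 CPM in RalAB cKO libraries and 0.125 to 0.476 CPM in control libraries. Like Fgr, it reached the filter's cutoff in RalAB cKO libraries alone. Clu, another apolipoprotein gene, was lower, at 33.8 to 45.0 CPM in RalAB cKO libraries and 48.9 to 86.2 CPM in control libraries (-0.68 ± 0.20, adjusted p = 0.0279). The sheddase genes Adam10 (-0.28 ± 0.18, adjusted p = 0.308) and Adam17 (-0.04 ± 0.16, adjusted p = 0.883) did not pass the test.

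In RalA cKO against control the 5 lower genes of the lists were Siglech (-1.53 ± 0.31, adjusted p = 0.0165), a DAP12-coupled receptor of microglia, Itgam (-1.10 ± 0.25, adjusted p = 0.03), Pik3ap1 (-1.14 ± 0.26, adjusted p = 0.0283), Prkcb (-0.68 ± 0.16, adjusted p = 0.0374) and Itpr2 (-0.44 ± 0.11, adjusted p = 0.0436). The 2 higher genes were Sh3bp2 and Pirb, an inhibitory receptor. Pirb was at 0.436 to 3.45 CPM in RalA cKO libraries and 0 to 0.182 CPM in control libraries, and at 0.445 to 1.44 CPM in RalAB cKO libraries. It reached the filter's cutoff in 3 RalA cKO, 2 RalAB cKO and 0 control libraries, so its call already depended on a high level in the mutants. The number of list genes called in this comparison ranged from 1, without control 2, to 15, without control 1. Over all tested genes, 103 were called without control 2 and 947 without control 1.

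**Figure D5:**
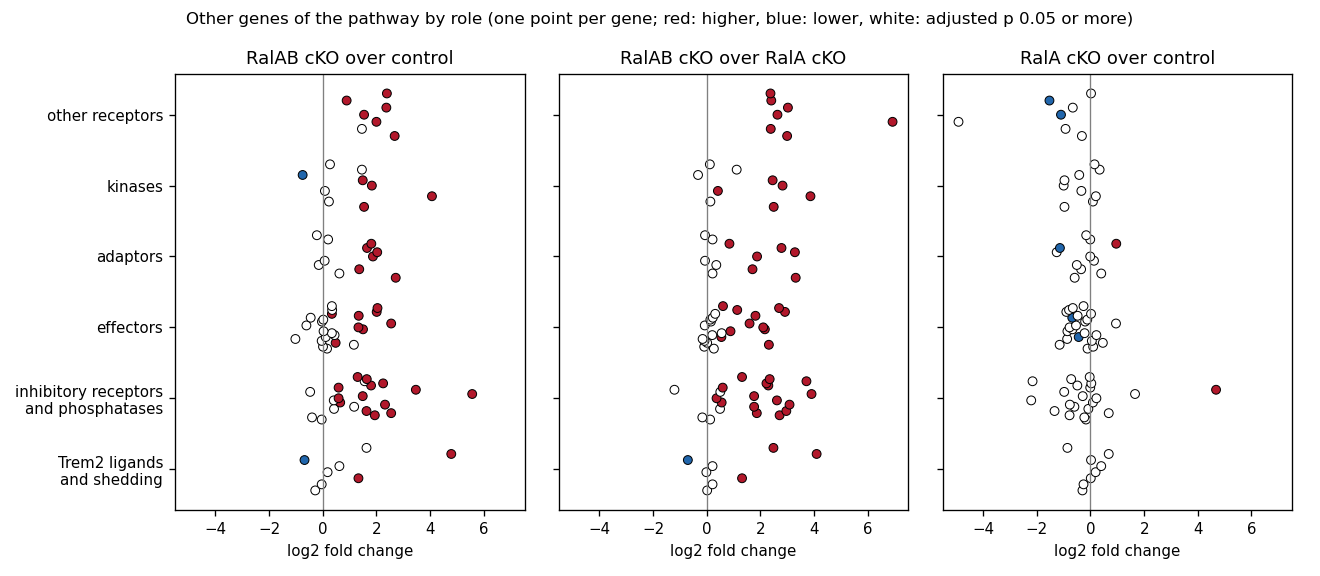
Log2 fold change (horizontal axis) of the 78 tested genes of the 6 lists, 1 point per gene and list, in RalAB cKO over control, RalAB cKO over RalA cKO and RalA cKO over control; red points are called higher, blue points lower and white points not called. Calls in RalAB cKO against control number 40 higher and 2 lower, against 2 higher and 5 lower in RalA cKO against control; the farthest points belong to genes with almost no counts in a group, such as Fcgr4 in RalA cKO.

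Because the members moved together, the 250 bases before their start sites were searched on both strands for the letters GAGGAAGT, a core bound by the myeloid transcription factor PU.1. In RefSeq (GRCm38.p6), 9 member genes had 12 windows, some of them overlapping, and 1 of the 12 held these letters, against 2.44% of 32851 windows. The shorter GGAAGT, contained in the first, was held by 3 of the 12 windows (those of Inpp5d, Fcgr2b and Fcgr1), against 19.7% of windows. The window of Inpp5d, chr1:87620062-87620311 on the + strand, is shown with the match in capitals, since it is the single member window that holds the longer letters.
Inpp5d promoter: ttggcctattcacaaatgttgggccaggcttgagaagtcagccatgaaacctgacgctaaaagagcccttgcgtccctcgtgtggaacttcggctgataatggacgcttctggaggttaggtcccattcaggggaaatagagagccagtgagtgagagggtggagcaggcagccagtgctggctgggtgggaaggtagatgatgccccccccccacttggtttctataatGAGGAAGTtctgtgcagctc
A match in these letters is a description of the sequence and is not evidence of binding.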

How the data were processed

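Estimated counts, TPM values and effective lengths per transcript were deposited by the authors, 1 file per library, per the file headers. The submitters' processing notes name Trimmomatic 0.36, kallisto 0.44 and GRCm38.p6, without saying which step each served. Per the labels' protocols, libraries were made with a stranded mRNA kit from Trizol-extracted RNA of single mice. Of 121843 transcripts, 121104 were matched to GENCODE vM21 and 739 were not (0.219% to 0.277% of counts). Estimated counts were summed to 35675 genes and rounded. The deposited TPM values were summed per gene and used for levels between genes.

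With R 4.3.3 and edgeR 4.0.16, genes were filtered (minimum count 10, minimum total 15), leaving 13456, scaled by TMM and fitted over all 12 libraries with a mean per group. Robust quasi-likelihood tests were adjusted by the Benjamini-Hochberg method over all tested genes at 0.05. The SE of a log2 fold change was derived from it and the F statistic (change over root F). CPM values are scaled by TMM. The procedure was tested on simulated data. The common biological coefficient of variation was 0.199. DESeq2 1.42.0 and limma 3.58.1 gave alternatives. Libraries of a group differed far beyond sampling noise (chi-square per degree of freedom 9.09 to 39.5), so all 12 counted as separate.

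Members and gene lists were chosen with earlier results of these data known. Of each list, up to 4 called genes with the smallest p were named, and Btk, Tec, Fyn, Grb2, Plcg1, Rac1, Dgkz, Fcgr4, Ptpn6, Adam10 and Adam17 were added after their values were seen. Some listed genes are not reported here. Ratios to markers used counts plus 0.5 on the log2 scale. Promoter windows came from RefSeq, GRCm38.p6.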

Additional observations from a re-analysis of the deposited data

Results flagged for a closer look

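Of 30 groups examined (10 members in 3 groups of 4 libraries), 2 held a library far from the other 3, where chance alone marks about 1 in 20 groups. Plcg2 stood at 45.5 CPM in RalA cKO 1, and the other RalA cKO libraries were at 39.7 to 40.1 CPM. Inpp5d stood at 5.63 CPM in RalA cKO 1, and the other RalA cKO libraries were at 4.16 to 4.34 CPM. Both gaps are in the same library. Without RalA cKO 1, the log2 fold change of Inpp5d in RalA cKO over control was -1.33 (adjusted p = 0.0294), against -1.23 (adjusted p = 0.0267) with it.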

How the results depend on the processing

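Over 20 alternatives (11 settings, 8 fits without a library of the groups compared and 1 pair of libraries left out, the last chosen after seeing the data) all 200 member values in RalAB cKO against control kept their direction and call. In RalAB cKO against RalA cKO 197 of 200 did, and Plcg2 alone lost its call, with Y-linked expression as a covariate (0.77, adjusted p = 0.0582) and without RalAB cKO 3 or 4. In RalA cKO against control 168 of 199 did, 7 lost a call, 18 gained it and 6 changed sign, all 6 uncalled: Plcg2 at -0.10 with library totals, -0.04 with the Y-linked covariate and down to -0.03 with single libraries left out (range -0.03 to 0.05), and Tyrobp at 0.06 without control 3 (range -0.55 to 0.06). The causes were not tested.

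In RalA cKO against control the members called, 1 in the main setting, numbered 4 with library totals in place of TMM, 2 without the count filter, 4 with DESeq2, 0 with limma-voom, 3 with voom quality weights, 0 with length offsets, 5 without control 1 and RalAB cKO 1, and 0 to 4 with single libraries left out. Genes called there, 374, numbered 1079 with DESeq2, 1789 with quality weights, 163 with the Y-linked covariate, 1693 without the pair, and 85 (without RalA cKO 4) to 947 (without control 1). List genes called there, 7, numbered 17, 4, 20 and 2 with DESeq2, voom, quality weights and only the groups compared, 19 without the pair, and 1 to 15 with single libraries left out. Genes called in RalAB cKO against control, 2478, numbered 4071 with quality weights, 3962 without the pair, and 1605 (without RalAB cKO 4) to 3209, and in RalAB cKO against RalA cKO, 1551, 2541 with quality weights. Library totals moved the median of all genes to -0.138 in RalA cKO against control, and the split of calls in RalAB cKO against control from 1264 higher of 2478 to 1002 higher of 2421. With homeostatic microglia markers the median member-to-marker log2 ratio was 1.17 in RalAB cKO over control, 1.35 in RalAB cKO over RalA cKO and -0.44 in RalA cKO over control, against 0.58, 0.41 and -0.08.

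Mouse numbers did not pair the libraries: correlations of same-numbered deviations were -0.185 to -0.0752, -0.198 to 0.115 and 0.0624 to 0.175 for the comparisons in the order RalAB cKO against control, RalAB cKO against RalA cKO and RalA cKO against control, and 0, 2 and 2 of 8 libraries matched best with their own number. With a replicate block 10, 10 and 2 members, 41, 45 and 4 list genes and 2146, 1343 and 232 genes were called in the same order. Clec7a, at 2 to 13 counts per library outside RalAB cKO, was too low for the fit of RalA cKO and control alone.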
